A study of Mus musculus with 22 samples.

Results

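The glycolysis and hypoxia response genes were a group of 36 listed genes of glucose uptake, the glycolytic pathway, lactate handling and the response to low oxygen, measured in experimental granulation tissue of mice lacking the collagenase MMP-13 and of wild-type (WT) mice. Each gene was read by the probe set annotated to it alone that had the highest mean over all 22 arrays. This rule found 33 of the 36 genes, among 18193 genes with a probe set of their own, and 32 of the 33 were tested. Gapdh was represented only by quality control probe sets of the array and was described without a test. No probe set was annotated to Gpi1 or Eno1 alone in the table used here, and those of Bnip3l were shared with a pseudogene, so these genes were not analysed here. All 32 tested genes had a mean signal above the median of all probe sets, and 20 of them had more than 1 probe set.

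Granulation tissue was induced with a viscose cellulose sponge placed under the dorsal skin, and RNA was taken from the ends of the sponge at 7 d, 14 d or 21 d. Each array carried RNA of 1 mouse: 3 WT and 3 Mmp13-/- mice at 7 d, and 4 of each genotype at 14 d and at 21 d. The mice were 5 to 8 weeks old, of a C57BL/6 x 129 mixed background that had been backcrossed to C57BL6, and the WT mice descended from the backcrossed heterozygotes. The deletion was present in every cell type, and the tissue was a mixture of cells. In such bulk samples fewer cells of a type and less RNA per cell cannot be told apart.

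Glycolysis splits glucose into pyruvate through a preparatory phase that spends ATP and a pay-off phase that returns it, and lactate dehydrogenase turns pyruvate into lactate when respiration is limited. At low oxygen the prolyl hydroxylases encoded by Egln1 and Egln3 no longer mark the hypoxia-inducible factor subunits HIF-1α (Hif1a) and HIF-2α (Epas1) for degradation, and the stabilised factor raises transcription of glucose transporters, glycolytic enzymes and further targets. HIF-1α is controlled largely at the protein level, so that its mRNA is a poor measure of its activity. Granulation tissue growing into an implant is short of oxygen before vessels reach it, and activated macrophages rely heavily on glycolysis.

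The factor binds a short DNA core, ACGTG or GCGTG. Promoter windows of 300 bases, from 250 before to 50 after a transcription start, were held for 29 of the 32 tested genes in the RefSeq annotation of GRCm38.p6, and 1 window per gene, the one nearest the annotated 5′ end, was searched on both strands. Of the 29 windows, 23 held at least 1 of the letters ACGTG or GCGTG or their reverse complements CACGT or CACGC (79.3%), against 43.8% of 27025 windows of all genes. The members' windows were also richer in CG dinucleotides, with a median of 24 against 7, and among windows with 24 or more the shares were 15 of 16 for the members and 75.4% for all genes. A match is a description of the letters and says nothing of binding in this tissue. As examples, 5 windows of genes described below are shown, all with at least 1 match. Each is on its gene's strand from 5′ to 3′ with the matches in capitals. Those of Kdm3a, Ankrd37 and Hk1, which passed the adjusted threshold in a comparison below, are not shown. CACGTG, which holds a match on each strand, counts as 2 overlapping matches.
Ak4: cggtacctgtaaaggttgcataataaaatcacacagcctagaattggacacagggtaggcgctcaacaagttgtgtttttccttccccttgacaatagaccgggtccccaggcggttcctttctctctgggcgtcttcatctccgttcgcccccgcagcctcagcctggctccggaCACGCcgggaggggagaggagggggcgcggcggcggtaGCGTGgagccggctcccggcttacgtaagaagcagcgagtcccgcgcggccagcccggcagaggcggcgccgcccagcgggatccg
Bnip3: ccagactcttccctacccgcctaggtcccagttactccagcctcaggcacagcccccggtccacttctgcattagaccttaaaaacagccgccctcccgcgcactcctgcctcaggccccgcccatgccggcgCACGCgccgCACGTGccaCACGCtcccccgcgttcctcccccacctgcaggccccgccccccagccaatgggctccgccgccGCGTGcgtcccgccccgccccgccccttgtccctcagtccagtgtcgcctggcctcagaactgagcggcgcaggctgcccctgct
Egln3: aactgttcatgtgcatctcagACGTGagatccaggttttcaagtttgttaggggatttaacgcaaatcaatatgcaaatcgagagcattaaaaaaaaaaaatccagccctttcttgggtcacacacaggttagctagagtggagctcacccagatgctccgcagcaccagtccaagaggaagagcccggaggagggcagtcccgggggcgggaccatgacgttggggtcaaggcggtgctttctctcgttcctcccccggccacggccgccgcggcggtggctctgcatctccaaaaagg
Ero1a: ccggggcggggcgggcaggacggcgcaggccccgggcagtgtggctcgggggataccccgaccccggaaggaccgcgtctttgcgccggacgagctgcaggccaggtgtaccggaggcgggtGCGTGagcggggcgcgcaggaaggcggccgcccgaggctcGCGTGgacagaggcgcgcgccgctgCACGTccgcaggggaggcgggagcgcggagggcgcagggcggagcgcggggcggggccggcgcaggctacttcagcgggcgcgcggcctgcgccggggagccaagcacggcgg
Slc2a1: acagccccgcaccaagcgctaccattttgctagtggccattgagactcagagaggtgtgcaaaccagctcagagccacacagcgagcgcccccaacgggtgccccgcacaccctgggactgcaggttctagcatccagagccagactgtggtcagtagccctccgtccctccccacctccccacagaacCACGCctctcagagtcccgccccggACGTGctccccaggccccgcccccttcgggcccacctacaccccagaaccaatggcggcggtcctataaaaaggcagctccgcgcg
These windows lie at chr4:101419039-101419338 (plus strand) for Ak4, chr7:138909457-138909756 (minus strand) for Bnip3, chr12:54203825-54204124 (minus strand) for Egln3, chr14:45318523-45318822 (minus strand) for Ero1a and chr4:119108495-119108794 (plus strand) for Slc2a1. Ak4 held 2 matches, Bnip3 5, Egln3 1, Ero1a 3 and Slc2a1 2. The windows of Aldoa, Eno2, Hk1, Mxi1, Pkm and Tpi1 held none. Other transcription starts of these genes were not searched. The start in the Ak4 window lay 2811 bases downstream of the gene's annotated 5′ end.

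The values were log2 signals after robust multi-array averaging (RMA), on which a difference of 1 is a doubling of signal. As a check of the labels, Mmp13 was lower on every Mmp13-/- array, with means between 10.69 and 11.72 in the WT groups and between 7.91 and 8.37 in the Mmp13-/- groups. The arrays had been hybridized in series that differed in RNA input and labelling: series 1 held all 7 d arrays and replicates 1 to 3 of 14 d, and series 2 held all 21 d arrays and replicate 4 of 14 d. Array medians lay between 4.16 and 4.27, and 1 array stood apart, WT replicate 3 at 21 d, with a standard deviation over probe sets of 2.19 against 2.25 to 2.34 on the others. At 14 d, where both series were present, 7 of the 32 genes differed between them by more than 0.5 on average over the genotypes, against 12.3% of all probe sets: Pfkl was lower on the series 2 arrays by -1.48, Slc16a3 by -1.08 and Pkm by -0.83, while Slc2a1 was higher by 0.89, Ankrd37 by 0.71, Aldoc by 0.58 and Slc2a3 by 0.50. The linear model therefore held a term for the series, estimated from the 14 d arrays alone, and every comparison of 14 d with another day rests on it. On the 14 d arrays of series 2 the 3′ control of Gapdh exceeded its 5′ control by 0.76 in WT and 0.90 in Mmp13-/- tissue. On the 14 d arrays of series 1 this excess, a measure of RNA integrity and of labelling, was 0.21 to 0.48. Its mean was 0.41 in series 1 and 0.62 in series 2. Genotype differences within 7 d and within 21 d lie in 1 series each.

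The mean signal of the 32 genes was 9.20, 9.19 and 9.19 on the WT arrays at 7 d, 9.10, 8.92, 8.84 and 9.15 at 14 d, and 8.59, 8.42, 8.32 and 8.72 at 21 d. On the Mmp13-/- arrays it was 9.19, 9.40 and 9.25 at 7 d, 9.26, 9.18, 8.93 and 9.10 at 14 d, and 8.64, 8.86, 8.84 and 8.99 at 21 d. The 21 d means of WT were the lowest of the study and lay below all 7 d and 14 d arrays, while the Mmp13-/- means at 21 d were above them, except that the lowest (8.64) lay below the highest of WT (8.72). As group means with SD these were 9.19 ± 0.0047 (n = 3), 9.01 ± 0.15 (n = 4) and 8.51 ± 0.18 (n = 4) in WT, and 9.28 ± 0.11 (n = 3), 9.12 ± 0.14 (n = 4) and 8.83 ± 0.15 (n = 4) in Mmp13-/-. By gene, the lowest of the 6 group means fell in WT at 21 d for 24 of the 32 genes, and the highest at 7 d for 24, 15 of them in Mmp13-/- and 9 in WT. These means hold the difference between the hybridization series, which the model below adjusts for by an estimate from the 14 d arrays. The signals of single arrays given below, and whether groups overlap, are not adjusted for it.

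**Figure D1:**
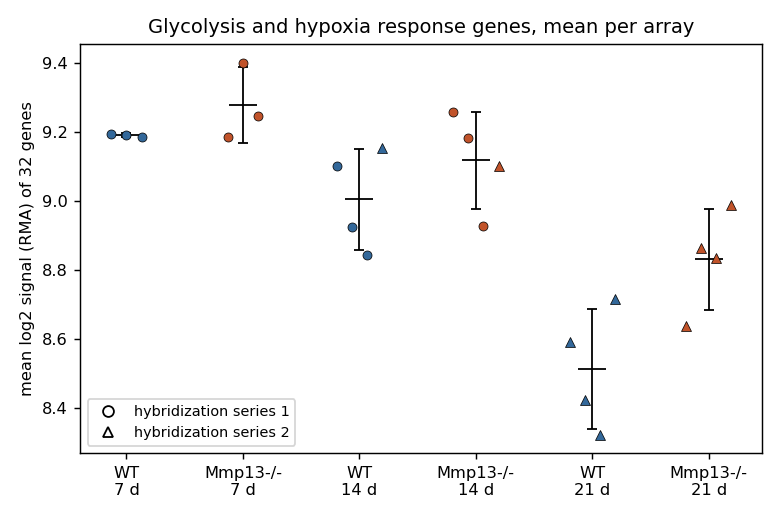
Mean log2 signal (RMA) of the 32 tested genes on each array (y axis) in the 6 groups (x axis); circles are arrays of hybridization series 1 and triangles of series 2, and bars give the group mean ± SD. The WT arrays at 21 d, between 8.32 and 8.72, are below every 7 d and 14 d array, and the Mmp13-/- arrays at 21 d lie between 8.64 and 8.99.

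How the genes moved as WT tissue matured was asked first between 7 d and 14 d. Kdm3a and Ankrd37, both targets of the hypoxia-inducible factor, fell, and Epas1 rose, in limma with Benjamini-Hochberg adjustment over all 45037 probe sets. These were 3 of 32 genes, as against 1.7% of all probe sets. Kdm3a, a histone H3 lysine demethylase, had log2 signals of 8.64, 8.82 and 8.65 at 7 d and of 8.13, 8.09, 7.98 and 8.31 at 14 d. It was lower on every 14 d array, by -0.61 (SE 0.10, adjusted p = 0.00196). Ankrd37, an ankyrin repeat protein, had 8.61, 8.01 and 8.16 at 7 d and 7.28, 6.83, 6.50 and 7.84 at 14 d, also without overlap, and differed by -1.33 (SE 0.24, adjusted p = 0.00552). Both calls held under all 31 alternative settings.

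Epas1 had signals of 7.33, 8.99 and 8.28 at 7 d and of 9.36, 9.56, 9.58 and 9.24 at 14 d, a difference of 1.28 (SE 0.26, adjusted p = 0.0121). The other probe set of Epas1 gave 0.54 and was not called. The array with the lowest value, WT replicate 1 at 7 d, carried much of the difference of 1.28, and without that array it was 0.85 (adjusted p = 0.0497). Epas1 is known for its expression in endothelial cells. The mean of 10 endothelial markers was 5.46, 7.09 and 6.48 on the same 7 d arrays and between 6.83 and 7.72 at 14 d, and 8 of the 10 had an unadjusted p under 0.05 in the same direction. Their part in the Epas1 value was not tested.

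At an unadjusted p under 0.05, 12 of the 32 genes were lower at 14 d than at 7 d in WT and 2 were higher, against 4.71% and 5.36% of all probe sets. Among the 11790 genes whose brightest probe set was above the median signal, these shares were 8.59% and 10.5%. The median over the 32 genes was -0.24. Beside the called genes the lower ones were Slc2a3, Hk2, Tpi1, Ldha, Pdk1, Pfkfb3, Pfkfb4, Slc16a3, Ak4 and Bnip3, with differences from -0.28 for Ldha to -0.84 for Slc16a3, and Adm, the vasodilator peptide adrenomedullin, was at 0.58. Markers of several cell types differed in the same comparison: 4 of 10 fibroblast and myofibroblast markers rose, with a mean between 10.63 and 11.25 at 7 d and between 11.51 and 11.77 at 14 d, and 4 of 8 adipocyte markers were lower at an unadjusted p under 0.05, with a mean between 5.91 and 7.53 and between 4.91 and 6.26. At the same unadjusted p, 6 of 10 keratinocyte, 3 of 10 macrophage and 8 of 10 endothelial markers were higher. Their part in the genes' values was not tested. In Mmp13-/- tissue no gene passed the adjusted threshold between 7 d and 14 d, against 0.628% of all probe sets, 6 were lower and 1 higher at an unadjusted p under 0.05, against 3.08% and 3.57%, and the median was -0.19. Among genes whose brightest probe set was above the median signal, the unadjusted shares there were 6.16% lower and 6.38% higher. Kdm3a differed by -0.31 (adjusted p = 0.241) and Ankrd37 by -0.75 (adjusted p = 0.268). The difference of Epas1 was -0.12 there.

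Between 14 d and 21 d in WT, 4 genes fell: Ak4, Bnip3, Ndrg1 and Hk1, 4 of 32 as against 0.42% of all probe sets. None rose. Ak4, a mitochondrial adenylate kinase, had signals of 8.10, 7.73, 7.48 and 8.25 at 14 d and of 6.91, 6.59, 6.85 and 7.22 at 21 d. All 21 d arrays lay below all 14 d arrays, and the difference was -1.26 (SE 0.20, adjusted p = 0.0191). Of its 5 probe sets, 2 were called lower and 2 had the opposite sign.

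Bnip3, a mitochondrial protein of the BCL2 family that takes part in mitophagy, had 10.85, 10.58, 10.51 and 11.15 at 14 d and 10.14, 9.88, 10.15 and 10.45 at 21 d, and differed by -0.96 (SE 0.21, adjusted p = 0.0499). Ndrg1, a stress-responsive gene, had 9.70, 9.61, 9.62 and 10.10 and then 9.15, 9.03, 9.26 and 8.86, a difference of -0.93 (SE 0.20, adjusted p = 0.0497). Its 5 probe sets were all negative, from -1.03 to -0.29, with 1 called, and as their mean it was at -0.79 (adjusted p = 0.0947). Hk1, a hexokinase, had 8.85, 8.80, 8.63 and 8.77 and then 8.20, 8.14, 8.25 and 8.50, a difference of -0.54 (SE 0.12, adjusted p = 0.0497), but the other probe set of Hk1 gave 0.17, and as the mean of both it was at -0.19 (adjusted p = 0.611). For none of these did the groups overlap, yet their adjusted p lay at the threshold: of 31 alternative settings Bnip3 was called in 8, Ndrg1 in 11, Hk1 in 6 and Ak4 in 25. Without replicate 4 of WT or of Mmp13-/- at 14 d, the arrays that tie the hybridization series together, 0 genes were called, and without WT replicate 4 at 21 d 12 were.

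**Figure D2:**
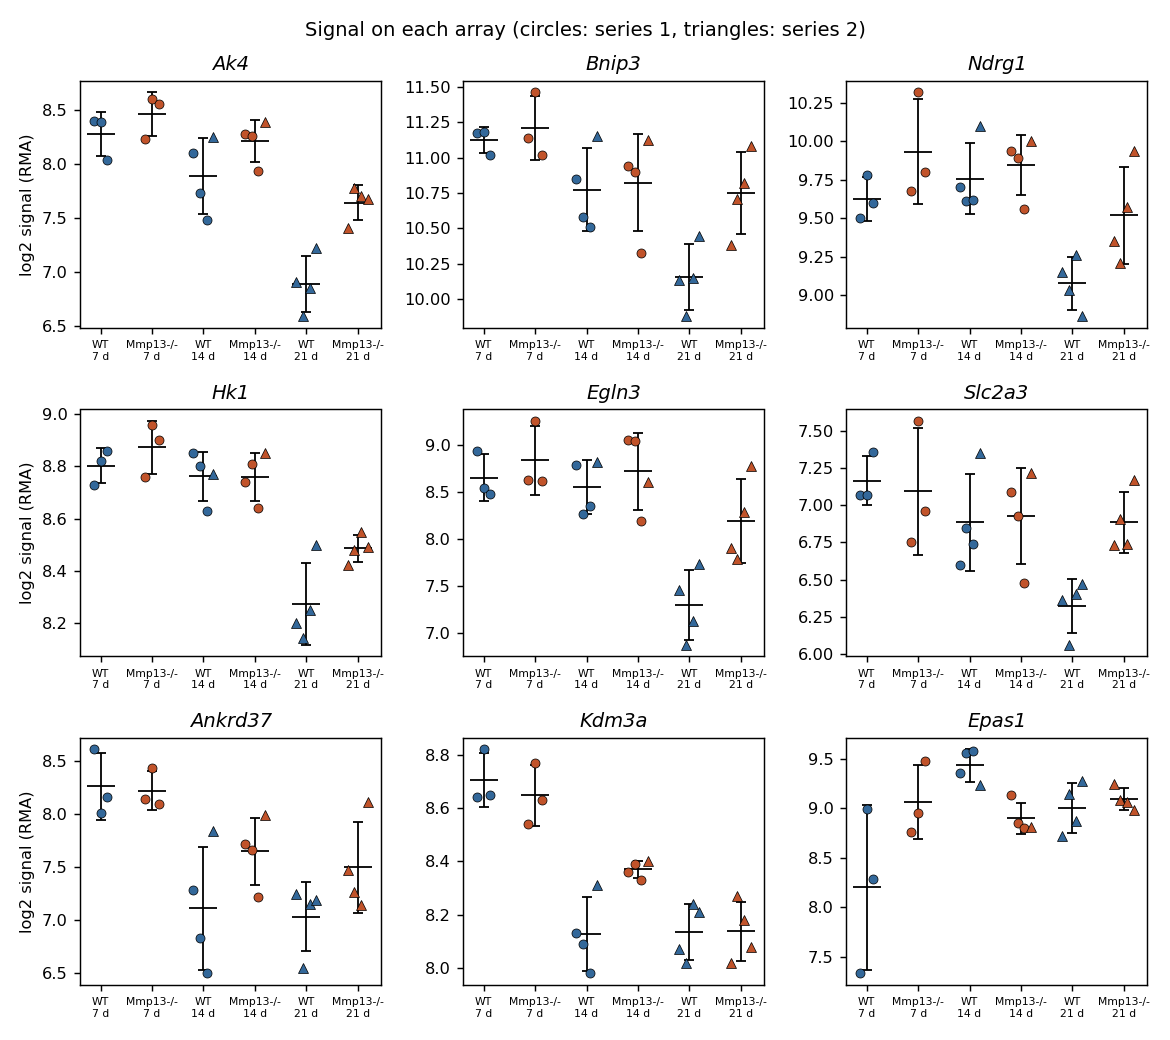
Log2 signal (RMA) of 9 genes on each array (y axes, each with its own range) in the 6 groups (x axes); circles are series 1, triangles series 2, and bars the mean ± SD. Ak4, Bnip3, Ndrg1 and Hk1 have their lowest arrays in WT at 21 d, Kdm3a and Ankrd37 have their highest at 7 d, and Epas1 has its lowest on a WT array at 7 d.

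At an unadjusted p under 0.05, 20 of the 32 genes were lower at 21 d than at 14 d in WT and none was higher, against 6.54% and 7.61% of all probe sets. Among genes whose brightest probe set was above the median signal, these shares were 10.2% and 7.5%. The median over the 32 genes was -0.51, and 30 of the 32 were negative, against 45.6% of probe sets. With only series 2, which leaves a single WT array at 14 d, the median was -0.63. Egln3 had the largest difference, -1.34 (SE 0.32, adjusted p = 0.0668), followed by Ak4 and by Ero1a, an oxidase of protein folding in the endoplasmic reticulum, at -1.12 (adjusted p = 0.107). Slc2a3, the neuronal-type glucose transporter, was at -0.94 (adjusted p = 0.059), but only 3 of its 4 probe sets had this sign, with values up to 0.40. In 13 of the 32 genes every 21 d array lay below every 14 d array, against 5.43% of probe sets, in signals not adjusted for the series. Without WT replicate 4 at 14 d the count at an unadjusted p under 0.05 was 9. The mean of 10 skeletal muscle markers was between 8.43 and 9.69 at 14 d and between 6.84 and 9.03 at 21 d in WT, none with an unadjusted p under 0.05. Over 8 neutrophil markers the mean was between 6.68 and 7.15 at 14 d and between 6.02 and 6.87 at 21 d, and 2 were lower at an unadjusted p under 0.05. Over 10 endothelial markers it was between 6.83 and 7.72 and between 6.82 and 7.31, with all 10 positive in the model and 2 at an unadjusted p under 0.05. At that unadjusted p, 3 of 6 erythroid markers were higher, and 1 macrophage and 1 fibroblast marker, of 10 each, were lower. The part of these cells in the result was not tested.

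In Mmp13-/- tissue no gene passed the adjusted threshold between 14 d and 21 d, against 0.0799% of all probe sets. At an unadjusted p under 0.05, 11 genes were lower and none was higher, against 6.43% and 7.27% of probe sets, with a median of -0.38 and 30 of 32 negative, against 47.5%. Among genes whose brightest probe set was above the median signal, the unadjusted shares were 9.58% lower and 5.26% higher. Ak4 differed by -0.84 (SE 0.20, adjusted p = 0.0967), Hk2 by -0.55 (adjusted p = 0.152), Kdm3a by -0.34 (adjusted p = 0.197), Egln1 by -0.39 (adjusted p = 0.199), Ndrg1 by -0.58 (adjusted p = 0.212) and Tpi1 by -0.35 (adjusted p = 0.212). Without WT replicate 4 at 14 d the count was 5, and without Mmp13-/- replicate 4 at 21 d it was 17.

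The genotypes were compared at 21 d, where all arrays came from series 2. No gene passed the adjusted threshold, as against 0.0488% of all probe sets. Nonetheless 30 of the 32 genes were higher in Mmp13-/- tissue, as against 49.6% of all probe sets, with a median difference of 0.34 against -0.00 over all probe sets. At an unadjusted p under 0.05, 19 were higher and none was lower, against 5.77% and 6.15% of all probe sets, and against 4.3% and 7.12% of the 11790 genes whose brightest probe set was above the median signal. In 5 genes every Mmp13-/- array lay above every WT array, against 1.37% of all probe sets. The genes share arrays and regulators and are not independent. They were also chosen with earlier results of these data known, so these shares are a description only. The count of 19 was 11 without WT replicate 2, 11 without WT replicate 3, the array that stood apart, 12 without Mmp13-/- replicate 4 at 21 d, and 10 with arrays centred on their medians; 28 to 31 of the genes were positive whichever 21 d array was left out. The median of 0.34 was 0.22 without WT replicate 3.

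**Figure D3:**
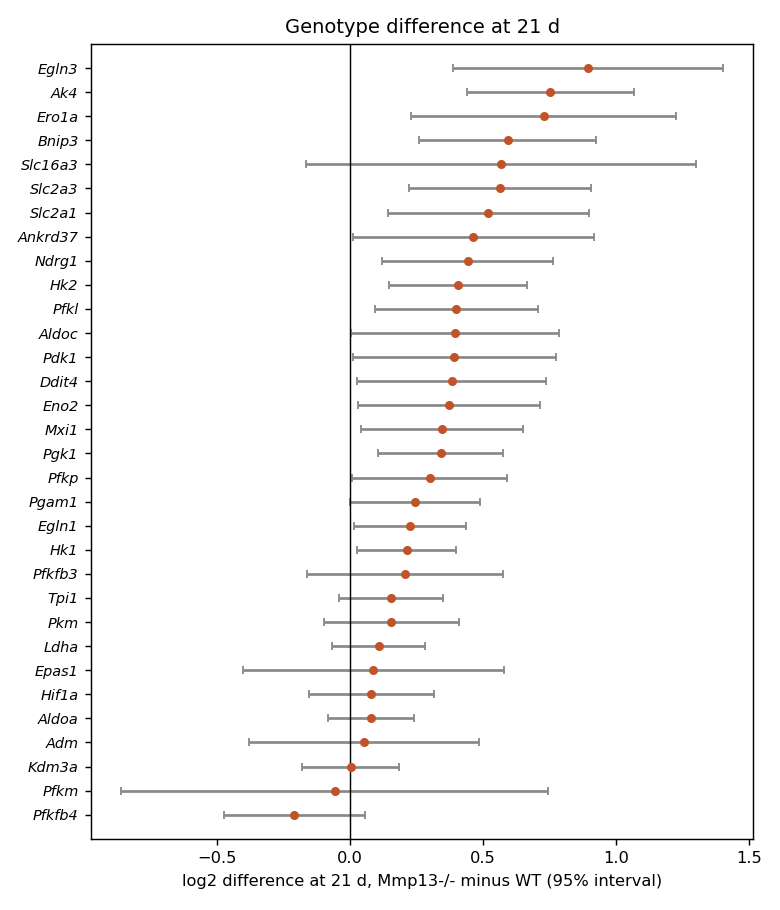
Difference in log2 signal at 21 d, Mmp13-/- minus WT (x axis), for the 32 tested genes (y axis, ordered by value); points are limma estimates and bars their 95% intervals, unadjusted for the number of genes. All genes but Pfkfb4 and Pfkm have estimates above 0, and Egln3, Ak4 and Ero1a have the largest, at 0.90, 0.75 and 0.73.

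Among the genes of glucose uptake and phosphorylation, all 4 had an unadjusted p under 0.05 and were higher in Mmp13-/- tissue at 21 d, against 5.77% of all probe sets. The 4 differences were from 0.21 to 0.56. Slc2a3 had 6.36, 6.06, 6.40 and 6.47 in WT and 6.73, 6.91, 6.74 and 7.17 in Mmp13-/- tissue. The groups did not overlap, and the difference was 0.56 (SE 0.16, adjusted p = 0.168), while its other probe sets gave differences down to 0.05. Slc2a1, the widespread glucose transporter, had 10.31, 10.15, 9.84 and 10.77 against 10.35, 11.08, 10.66 and 11.06, with overlap, and differed by 0.52 (adjusted p = 0.255). Hk2, the inducible hexokinase, had 8.27, 8.05, 8.17 and 8.44 against 8.28, 8.88, 8.68 and 8.71, a difference of 0.41 (SE 0.12, adjusted p = 0.193). Here 1 Mmp13-/- array fell within the WT range. Hk1 was at 0.21.

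In the preparatory phase, 3 of 6 genes had an unadjusted p under 0.05, all higher in Mmp13-/- tissue at 21 d, against 5.77% of all probe sets. The 3 were the phosphofructokinase subunits Pfkl (0.40) and Pfkp (0.30), which commit glucose to glycolysis, and the aldolase Aldoc (0.40). Only 2 of the 3 probe sets of Pfkp had this sign, with values down to -0.02. Aldoa, which is the main aldolase of muscle, was at 0.08 and the triosephosphate isomerase Tpi1 at 0.16. Pfkm, the muscle-type phosphofructokinase, was at -0.06 and varied widely between mice of 1 group. Its values were 6.35, 7.34 and 8.24 in WT at 7 d, where the mean of the skeletal muscle markers was 5.93, 9.20 and 10.33, and 7.41, 6.26 and 8.20 in Mmp13-/- tissue at 7 d, where it was 9.37, 6.58 and 10.09. At 21 d this marker mean was between 6.84 and 9.03 in WT and between 7.24 and 8.69 in Mmp13-/- tissue. The part of muscle in the Pfkm values was not tested.

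In the pay-off phase, Pgk1, which makes the first ATP of that phase, was at 0.34 (adjusted p = 0.234) and Eno2, the neuron-type enolase, at 0.37 (adjusted p = 0.375), both with an unadjusted p under 0.05. Eno2 had 5.88, 5.99, 5.63 and 5.75 in WT against 6.10, 6.49, 6.02 and 6.13 in Mmp13-/- tissue, without overlap. Pgam1 was at 0.24 and Pkm, the pyruvate kinase, at 0.16. The 3′ control probe set of Gapdh read 12.12 ± 0.09 (SD, n = 4) in WT and 12.23 ± 0.10 (SD, n = 4) in Mmp13-/- tissue at 21 d, and 12.62 ± 0.09 (n = 12) in series 1 against 12.19 ± 0.09 (n = 10) in series 2. Its excess over the 5′ control of the same gene, a measure of RNA integrity and of labelling, was 0.54 ± 0.17 and 0.60 ± 0.21 in WT and Mmp13-/- tissue at 21 d, 4 arrays each.

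Of the 5 genes of lactate, pyruvate and the regulation of flux, only Pdk1, a kinase that shuts off pyruvate dehydrogenase, had an unadjusted p under 0.05 at 21 d. It was higher in Mmp13-/- tissue, as were 5.77% of all probe sets at that p. The difference of Pdk1 was 0.39 (adjusted p = 0.407). Only 3 of its 4 probe sets had this sign, with values down to -0.065. Ldha, which makes lactate, was at 0.11, with WT arrays between 11.66 and 11.80 and Mmp13-/- arrays between 11.74 and 11.94. Slc16a3, the lactate exporter, was at 0.57 but spread widely in WT, with 5.95, 4.99, 3.73 and 6.30 against 5.57, 6.17, 5.54 and 5.96. The lowest of these values belongs to WT replicate 3, the array that stood apart. Pfkfb3, which makes an activator of phosphofructokinase, was at 0.20, and Pfkfb4, of the same family, at -0.21, the most negative of all.

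Of the 9 hypoxia targets outside glycolysis, 7 had an unadjusted p under 0.05 at 21 d, all higher in Mmp13-/- tissue, against 5.77% of all probe sets. Ak4 read 6.91, 6.59, 6.85 and 7.22 in WT and 7.41, 7.78, 7.71 and 7.68 in Mmp13-/- tissue, with no overlap. The difference of 0.75 (SE 0.15) had an unadjusted p of 7.39e-05 and an adjusted p of 0.0616 in limma; it was called in 3 of 31 alternative settings and was 0.27 as the mean of all its probe sets, of which 2 of 5 had the opposite sign. Bnip3 read 10.14, 9.88, 10.15 and 10.45 against 10.38, 10.71, 10.82 and 11.08, with 1 Mmp13-/- array inside the WT range, and differed by 0.59 (SE 0.16, adjusted p = 0.137). Ero1a read 8.17, 7.98, 7.60 and 8.74 against 8.34, 8.87, 9.03 and 9.16, a difference of 0.73 (SE 0.24, adjusted p = 0.227), and its 3 probe sets gave 0.62 to 0.73.

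Ndrg1 was at 0.44, Ankrd37 at 0.46, the mTOR inhibitor gene Ddit4 at 0.38 and the MYC antagonist Mxi1 at 0.35, all with an unadjusted p under 0.05 and none below an adjusted p of 0.256. Adm was at 0.05 and Kdm3a at 0.00, with intervals of -0.38 to 0.48 and -0.18 to 0.18. Among the oxygen sensors, Egln3, itself a target of the factor, read 7.46, 6.87, 7.12 and 7.73 in WT and 7.90, 7.79, 8.29 and 8.78 in Mmp13-/- tissue. The groups did not overlap, the difference was 0.90 (SE 0.24, adjusted p = 0.141), and both of its probe sets gave similar values, 0.83 and 0.90. Egln1 read 8.36, 8.19, 8.13 and 8.13 against 8.42, 8.46, 8.38 and 8.45, without overlap, a difference of 0.22 (SE 0.10, adjusted p = 0.38). The factor subunits themselves were at 0.08 for Hif1a, with an interval of -0.16 to 0.32, and at 0.09 for Epas1, with an interval of -0.40 to 0.58.

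At 7 d and 14 d the genotypes lay closer. At 7 d no gene passed the adjusted threshold, against 0.00888% of all probe sets, the median difference was 0.07 with 21 of 32 positive, and 2 genes were higher at an unadjusted p under 0.05, against 1.27% of probe sets: Epas1 at 0.86 (SE 0.27) and Adm at 0.54 (SE 0.24), both at an adjusted p of 1. Epas1 read 8.76, 8.95 and 9.48 in Mmp13-/- tissue, against the WT values given above, with overlap. Without WT replicate 1 its difference was 0.43, and its other probe set gave 0.11 with all arrays. The median over the genes turned to -0.02 with 14 positive without Mmp13-/- replicate 2. It was 0.11 without WT replicate 1, 0.03 without WT replicate 3, 0.10 without Mmp13-/- replicate 3, and 0.03 with the mean of all probe sets of a gene. Ndrg1 was at 0.31, Pfkfb3 at -0.33, Pkm at 0.15 and Ak4 at 0.19.

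At 14 d no gene passed the adjusted threshold either, against 0.0178% of all probe sets, the median difference was 0.10, and 28 of 32 genes were positive, against 52.1% of probe sets. Without Mmp13-/- replicate 2 the median was 0.05, without Mmp13-/- replicate 1 it was 0.06, without WT replicate 3 it was 0.06 with 22 positive, and without Mmp13-/- replicate 3 it was 0.16. The series 2 arrays alone, 1 of each genotype, gave a median of -0.02 with 14 positive. At an unadjusted p under 0.05, 4 genes were higher and 1 lower, against 1.76% and 2.22% of probe sets: Hk2 at 0.36, Kdm3a at 0.24, Ankrd37 at 0.53 and Ak4 at 0.33, and Epas1 at -0.54, with an adjusted p of 0.999 in each case. Kdm3a read 8.13, 8.09, 7.98 and 8.31 in WT against 8.36, 8.39, 8.33 and 8.40 in Mmp13-/- tissue, and did not overlap, as was so in this direction for 1.62% of probe sets. Epas1 read 9.36, 9.56, 9.58 and 9.24 against 9.13, 8.85, 8.80 and 8.81, in the opposite order and also without overlap, as were 1.9% of probe sets. The 10 endothelial markers had a median difference of 0.62 at 7 d, -0.27 at 14 d and -0.40 at 21 d. These were the same signs as Epas1 at 7 d and 14 d but not at 21 d. Markers of other cells were also lower in Mmp13-/- tissue at 14 d. With an unadjusted p under 0.05 these were 6 of 10 keratinocyte, 4 of 10 fibroblast and myofibroblast, 2 of 8 neutrophil and 1 of 6 erythroid markers, beside 1 of 10 endothelial. Of the fibroblast markers 1 was called. The part of these cells was not tested.

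Averaged over the days, 28 of 32 genes were higher in Mmp13-/- tissue, against 50.1% of probe sets, and 13 of them at an unadjusted p under 0.05, against 3.07%. None passed the adjusted threshold, against 0.0688% of probe sets. Ak4 was at 0.42 (SE 0.09, adjusted p = 0.122), Hk2 at 0.24 (adjusted p = 0.449), Ndrg1 at 0.28 (adjusted p = 0.502), Egln3 at 0.41 (adjusted p = 0.569), Egln1 at 0.17 (adjusted p = 0.579) and Slc2a1 at 0.30 (adjusted p = 0.596). Without Mmp13-/- replicate 2 at 7 d the count of 13 was 8.

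Whether the genotypes differed in how the genes moved with time was asked by the interaction. No gene was called for either step, and 0% of all probe sets was called in limma. From 7 d to 14 d, 2 genes had a positive and 1 a negative interaction at an unadjusted p under 0.05, against 0.921% and 1.37% of probe sets: Kdm3a at 0.30, Hk2 at 0.41 and Epas1 at -1.40 (SE 0.36, with -0.60 from its other probe set), all at an adjusted p of 1. From 14 d to 21 d there were 3 and 1, against 3.25% and 3.33%: Bnip3 at 0.54 (adjusted p = 0.698), Slc2a3 at 0.52 (adjusted p = 0.741), Egln3 at 0.73 (adjusted p = 0.757) and Pfkfb4 at -0.41 (adjusted p = 0.729). The median over the 32 genes was 0.22 for that step. It was 0.10 without WT replicate 3 at 21 d, 0.11 without replicate 4 of either genotype at 14 d, 0.42 with only series 2, and 0.13 with the mean of all probe sets of a gene. So the calls between 14 d and 21 d that were made in WT and not in Mmp13-/- tissue were not shown to differ between them.

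Further genes of the same metabolism were taken from lists of genes that are no members. Of 33 other hypoxia targets, 25 were higher in Mmp13-/- tissue at 21 d, against 49.6% of all probe sets, with a median of 0.16. Of the 33, 8 were higher and none lower at an unadjusted p under 0.05, against 5.77% and 6.15% of probe sets. None was called, against 0.0488% of probe sets. In WT between 14 d and 21 d, 3 of the 33 fell, against 0.42% of all probe sets called in either direction: Stc1, the hormone stanniocalcin, by -1.08 (SE 0.19, adjusted p = 0.0261), P4ha2, a collagen prolyl hydroxylase subunit, by -0.90 (SE 0.18, adjusted p = 0.0347), and the glycogen synthase Gys1 by -1.03 (SE 0.22, adjusted p = 0.0485). At an unadjusted p under 0.05, 14 of the 33 were lower and none higher, against 6.54% and 7.61% of probe sets. Between 7 d and 14 d in WT, Hmox1, heme oxygenase, rose by 1.11 (SE 0.21, adjusted p = 0.0073), as did Bpgm, which makes 2,3-bisphosphoglycerate, by 0.82 (SE 0.16, adjusted p = 0.00734), and in Mmp13-/- tissue Plod2, a collagen lysyl hydroxylase, fell by 1.07 (SE 0.24, adjusted p = 0.0417).

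The other branches of carbon metabolism stayed nearer 0. At 21 d the median genotype difference was 0.03 over 21 other genes of glycolysis and lactate, many of them tissue-restricted isoforms, -0.02 over 7 genes of the pentose phosphate pathway, -0.00 over 18 of the tricarboxylic acid cycle, -0.05 over 21 of oxidative phosphorylation and -0.00 over 11 other genes of oxygen sensing, and none was called. Between 14 d and 21 d in WT these medians were -0.07, -0.03, -0.02, 0.09 and -0.11. Markers of other cells were read beside the 21 d difference: over 10 macrophage markers the mean was between 10.09 and 10.34 on WT arrays and between 9.99 and 10.61 on Mmp13-/- arrays, with 1 marker higher at an unadjusted p under 0.05, over 8 neutrophil markers it was between 6.02 and 6.87 and between 6.14 and 6.46, with none, and over 10 endothelial markers between 6.82 and 7.31 and between 6.48 and 6.85, with 2 lower. Over 10 fibroblast and myofibroblast markers it was between 11.67 and 11.77 and between 11.39 and 11.76, with 7 negative and 2 of them at an unadjusted p under 0.05. At that unadjusted p 1 of 10 keratinocyte markers was lower, and of the adipocyte, erythroid and skeletal muscle markers none had an unadjusted p under 0.05. Their part in the difference was not tested.

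**Figure D4:**
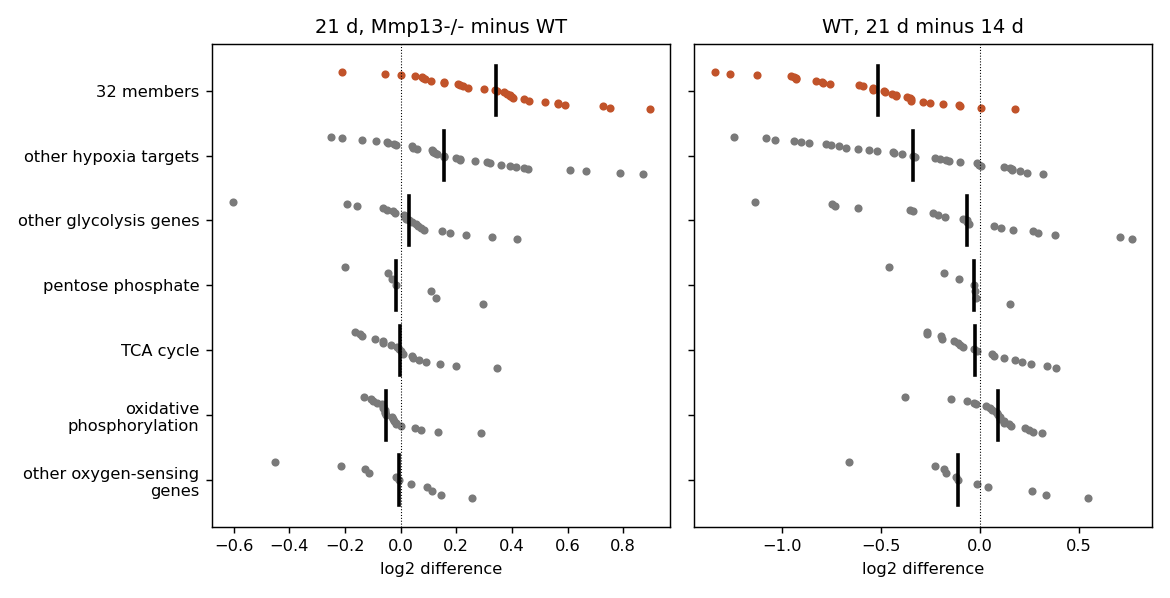
Log2 difference (x axes) of each gene of the 32 members (red) and of 6 lists of related genes (grey), with the list's median as a black bar; the left panel is Mmp13-/- minus WT at 21 d and the right panel 21 d minus 14 d in WT. The members have medians of 0.34 and -0.51, the other hypoxia targets 0.16 and -0.34, and the other lists lie near 0.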

How the data were processed

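Total RNA of 22 mice was hybridized to Affymetrix mouse arrays. The authors deposited log2 signals made by RMA, per the labels and the study's methods in Chipster, after a quality check with AGCC and Expression Console. Series 1 started from 2 µg of RNA and series 2 from 250 ng with another labelling kit. The deposited log2 values, given to 2 decimals, were used without further normalization, and 64 control probe sets were left out. Probe sets were named from GEO's platform annotation (34945 with 1 symbol, 932 with several, 9160 unnamed). All 45037 probe sets were fitted with limma 3.58.1 in R 4.3.3 on the 6 groups and the hybridization series (residual df 15), with Benjamini-Hochberg adjustment over all, called at adjusted p under 0.05. The procedure was tested on simulated data.

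By plan, full statistics went to the genes called, or otherwise to up to 6 with the smallest p per comparison. Up to 3 called genes of each related list were added. Others, some also with array values, an SE or an adjusted p, were chosen after their values were seen. The members and lists were chosen with earlier results of these data known. The labels' replicate numbers did not pair the samples. The number of arrays limits the precision. Alternatives were models without the series term, on subsets of arrays, with a replicate block, other scaling, filtering, variance and probe set rules, and leaving out each array; the counts at an unadjusted p under 0.05 were added after seeing the data.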

Additional observations from a re-analysis of the deposited data

Results flagged for a closer look

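In groups of 4 arrays, the values of the 32 genes and their mean were searched for a single array far from the other 3, by the ratio of its gap to the whole range (critical value 0.829). Of 132 sets of values, 5 were singled out, and chance gives about 1 in 20. At 14 d in Mmp13-/- tissue, replicate 3 was the lowest for Pfkp (9.07, the next being 9.24) and for Ldha (11.74, the next being 11.89), and replicate 1 was the highest for Epas1 (9.13, the next being 8.85). At 21 d in WT tissue, replicate 4 was the highest for Ldha (11.80, the next being 11.68) and replicate 2 the lowest for Ankrd37 (6.55, the next being 7.15). No comparison between genotypes of a difference over time passed its test.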

How the results depend on the processing

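Counts of the 32 genes called after adjustment and, as "unadjusted", at an unadjusted p under 0.05 were recomputed under each alternative; the cause of each shift was not tested. Between 14 d and 21 d in WT the 4 calls became 13 without the hybridization term, 0 with only the days compared, 0 with only series 2, 0 with the replicate block, 2 with arrays centred on their medians, 7 with only probe sets above the median and 2 with the mean of all probe sets of a gene, and ranged from 0 (without WT replicate 4 or Mmp13-/- replicate 4 at 14 d) to 12 (without WT replicate 4 at 21 d) when single arrays were left out. The unadjusted count there, 20, was 10 with the replicate block and 9 to 23 leaving out arrays. The median there, -0.51, was -0.33 with the block. In Mmp13-/- tissue the median of -0.38 was -0.22 without the hybridization term and -0.13 with the block, 0 calls became 3 without the hybridization term, and the unadjusted 11 became 1 with only series 2, 3 with the replicate block and 5 to 17 leaving out arrays.

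Between 7 d and 14 d in WT the 3 calls became 7 with only the days compared, 6 with only series 1, 6 with only probe sets above the median, 7 with a trended robust variance and 6 with the mean of all probe sets, and 3 to 4 leaving out arrays (unadjusted, 14 and 10 to 17); Epas1 lost its call within series 1 (1.30, adjusted p = 0.0616). In Mmp13-/- tissue the unadjusted 7 ranged from 3 (without Mmp13-/- replicate 2 at 7 d or replicate 3 at 14 d) to 10. At 21 d the 0 calls became 1, Ak4, with quantile normalization and 0 to 1 leaving out arrays (Ak4 without WT replicate 4 or Mmp13-/- replicate 1), and the unadjusted 19 became 11 with only the days compared, 11 with only series 2, 10 with arrays centred and 11 to 20 leaving out arrays. At 14 d the unadjusted 5 became 0 with only series 2 and 2 to 7 leaving out arrays (2 without WT replicate 2 or 3 or Mmp13-/- replicate 2), at 7 d the unadjusted 2 became 0 to 3 (0 without WT replicate 1), and over all days the 13 became 8 to 16. The unadjusted interaction counts were 5 with only the days compared and 6 with only series 1 in place of 3 for the first step (1 to 4 leaving out arrays, with a median between -0.00 and 0.15), and 0 with only series 2 and 7 with a trended robust variance in place of 4 for the second (1 to 9). Calls for the other comparisons stayed at 0. Ak4 at 7 d reversed to -0.04 as the mean of its probe sets.

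Same-numbered arrays of different groups did not deviate together (median correlation of deviations -0.00 over 50 pairs, 9 over 0.1), so the replicate block has no basis in the design; it changed no other count by more than 1.5 times.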
